A study of Homo sapiens with 3 samples.

Results

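BT483 is a breast cancer cell line, described by its labels as a primary invasive ductal carcinoma. Its capture Hi-C data were used here to set 3 breast cancer risk loci against 3 other captured regions in the same nuclei. In capture Hi-C, chromatin is fixed and cut, neighbouring DNA ends are ligated, and pairs with an end in a chosen region are enriched on baits, so that each count is a ligated pair, here called a contact. Captured regions on chromosomes 2, 8 and 9 were taken as the risk loci (2q35 on chromosome 2, 8q24.21 on chromosome 8, 9q31.2 on chromosome 9), and those on chromosomes 3, 16 and 18 as the other regions, whose role the labels do not state. The risk loci held 519 of the 1077 captured HindIII fragments and the other regions held 558. BT483 is 1 of 3 samples of the series, next to SUM44 and GM06990, and it has 2 replicate count columns. BT483 cells were grown in RPMI medium with serum and insulin, fixed in formaldehyde at 2% for 5 min and lysed with trypsin. No source used here says that the replicates came from separate cultures, so the spread between these 2 columns may be technical. Each SD of a class difference covers only that spread. Errors and p-values of single regions cover it too, mostly after the replicate difference shared by all regions was taken out. Class p-values measure the spread between regions of a class, and intervals of window ratios measure counting error only.

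In GRCh37 (hg19) the captured regions were chr2:217609776-218362744 (2q35, 227 fragments), chr8:127886760-128470692 (8q24.21, 192 fragments) and chr9:110758376-111099364 (9q31.2, 100 fragments). The other regions were chr3:82599410-82938789 with 109 fragments, chr16:73599933-74183980 with 190 and chr18:38494518-39252983 with 259. Only the chromosome 3 region lay on a short arm. The risk loci are gene-poor intervals with risk variants away from coding sequence, and each has a well known growth gene at some distance. IGFBP5, which encodes a binding protein of insulin-like growth factors, lies centromeric of the 2q35 region. The MYC oncogene and the long non-coding RNA gene PVT1 lie telomeric of the 8q24.21 region. KLF4, which encodes a zinc finger transcription factor, lies centromeric of the 9q31.2 region. In nuclei in general, contacts fall steeply with distance, chromosomes keep to territories, and arms of a chromosome contact each other less than they contact themselves. No gene was placed on a window here, because the annotation used GRCh38 positions.

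The replicates of BT483 differed in depth and in where their contacts fell. Replicate 1 held 1860834 contacts outside the captured regions and replicate 2 held 5867422. Contacts inside the captured region came to between 39.3 and 57.4 per 100 trans contacts in replicate 1, over the 6 regions, and to between 10.3 and 27.7 in replicate 2. Over 2002 windows of 1 Mb on chromosomes with no captured region and at least 300 contacts, the log2 ratio of replicate 1 to replicate 2 had an SD of 0.43, against 0.10 in GM06990 and 0.10 in SUM44. In BT483, 82 of these windows were at least 2 times higher in replicate 1 and none was as much higher in replicate 2. The 6 regions shared this difference: between pairs of regions the replicate differences of the windows correlated with r from 0.50 to 0.76 (2002 windows that share the 2 libraries), against -0.12 to 0.18 in GM06990. Most values are therefore given for each replicate apart, and regions were compared within a replicate.

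The risk loci put a smaller share of their contacts near themselves than the other regions did, but the classes overlapped. Of the contacts outside the captured region, those within 5 Mb of it (near cis) made up 10.2% and 14.8% at 2q35 in replicates 1 and 2. The 8q24.21 share was 14.7% and 18.7%, and the 9q31.2 share was 16.1% and 20.0%. It reached 18.4% and 21.0% in the chromosome 3 region, 16.2% and 21.6% in the chromosome 16 region, and 15.7% and 18.8% in the chromosome 18 region. Thus 2q35 was lowest in both replicates, whereas 9q31.2 lay within the range of the other regions in both. These shares leave out contacts inside the captured region, and the regions differed in width. The chromosome 3 and 9q31.2 regions spanned 339 and 341 kb, and the 2q35 and chromosome 18 regions 753 and 758.5 kb. The part of width in these shares was not tested. The risk mean minus the other mean was -2.86 ± 0.29 percentage points (SD, n = 2). Trans contacts, with other chromosomes, took the largest share everywhere, from 60.7% in the chromosome 3 region in replicate 2 to 75.2% at 2q35 in replicate 1. The class difference in trans share, 2.76 ± 2.39 percentage points (SD, n = 2), was close to the spread between the replicates. Regions are not replicates of a class, and 3 regions against 3 cannot give a two-sided exact permutation p below 0.10, so these class differences carry no test.

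Contacts fell with distance at different rates in different regions, and the risk loci held the steepest curve of replicate 1 and a shallow one. The slope is that of log10 contacts per pair of fragments on log10 distance, between 50 kb and 5 Mb. For 2q35 the value was -1.15 in replicate 1, the steepest of the 6 regions. In replicate 2 it was -0.95, level with the chromosome 16 region. The 8q24.21 region had slopes of -0.79 and -0.62, and 9q31.2 had slopes of -1.01 and -0.85. Among the other regions, the slopes were -0.66 and -0.62 on chromosome 3, -1.06 and -0.95 on chromosome 16, and -0.80 and -0.67 on chromosome 18. Replicate 1 was steeper than replicate 2 in all 6 regions. The class difference of -0.10 ± 0.06 (SD, n = 2) was small beside the range within each class. By side, it was -0.21 and -0.14 on the centromeric side but 0.003 and 0.063 on the telomeric side. The 2q35 curve was not the lowest at short range: between 232 and 341 kb it held 403 and 564 contacts per 1000000 trans contacts of its captured fragments, above 324 and 346 at 8q24.21. Between 1581 and 2321 kb the order was turned, with 27.2 and 50.9 at 2q35 against 78.4 and 114 at 8q24.21.

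**Figure D1:**
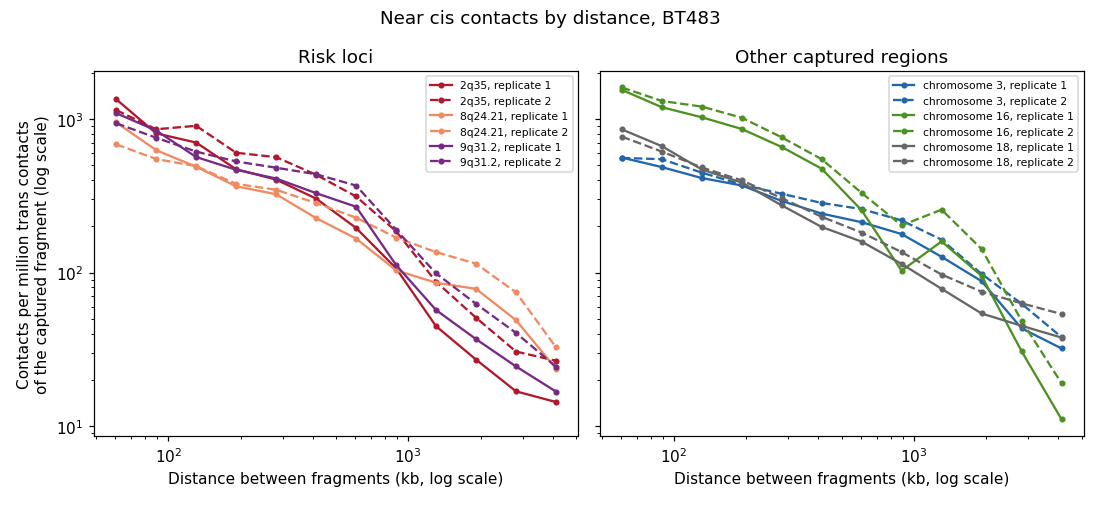
Contacts per 1000000 trans contacts of the captured fragment against distance, both on log scales, in 12 distance bins for the 3 risk loci (left) and the 3 other regions (right); solid lines are replicate 1 and dashed lines replicate 2. The 2q35 curve falls from 1344 in the first bin to 14.4 in the last in replicate 1, and the chromosome 16 curve has a dip near 1 Mb.

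Each region faced the chromosome in its own way, and the most one-sided regions came from both classes. Side asymmetry is the log2 ratio of telomeric to centromeric contacts per pair of fragments at matched distance, averaged over 12 bins from 50 kb to 5 Mb. The 8q24.21 mean was 1.27 in replicate 1 and 0.99 in replicate 2, and the telomeric side was higher in 12 of 12 bins in both replicates. Between 108 and 158 kb the excess was 1.69 and 1.43. The 9q31.2 region leaned the other way, with -0.44 and -0.31: the centromeric side was higher in 11 bins in both replicates, and only the bin from 3406 to 5000 kb was telomeric, at 0.81 and 1.46. At 2q35 the mean was near 0, at 0.09 and 0.16, but its bins went both ways. The telomeric side was higher in both replicates in 6 bins, the centromeric side in 3, and 3 were mixed. The values were -0.63 and -0.66 between 50 and 73.4 kb, and 0.51 and 0.59 between 1077 and 1581 kb.

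The chromosome 16 region leaned to the centromere most of all, with -0.87 and -0.79, and its bin between 1077 and 1581 kb reached -3.60 and -3.16. Only its 2 farthest bins were telomeric, at 0.84 and 0.46 and at 1.36 and 1.005. The chromosome 18 region averaged -0.12 and -0.15, but that mean hid a turn: it was telomeric in the 5 nearest bins, with 1.5 and 1.02 between 108 and 158 kb, and centromeric in the 7 farther bins, with -1.79 and -1.22 between 2321 and 3406 kb. Its slope was accordingly -0.56 and -0.47 on the centromeric side against -1.06 and -0.87 on the telomeric side. The chromosome 3 region was nearly even, at -0.04 in both replicates. In absolute size, the class means differed by -0.056 ± 0.015 (SD, n = 2), and without the chromosome 16 region the sign turned, to 0.15. As a measure of the target DNA on each side served the trans contacts of the other 5 regions with the same windows, whose log2 side ratios ranged only from -0.30 to 0.30 over all regions and replicates. For 8q24.21 that ratio was 0.20 and -0.17, and for the chromosome 16 region 0.03 and -0.03.

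**Figure D2:**
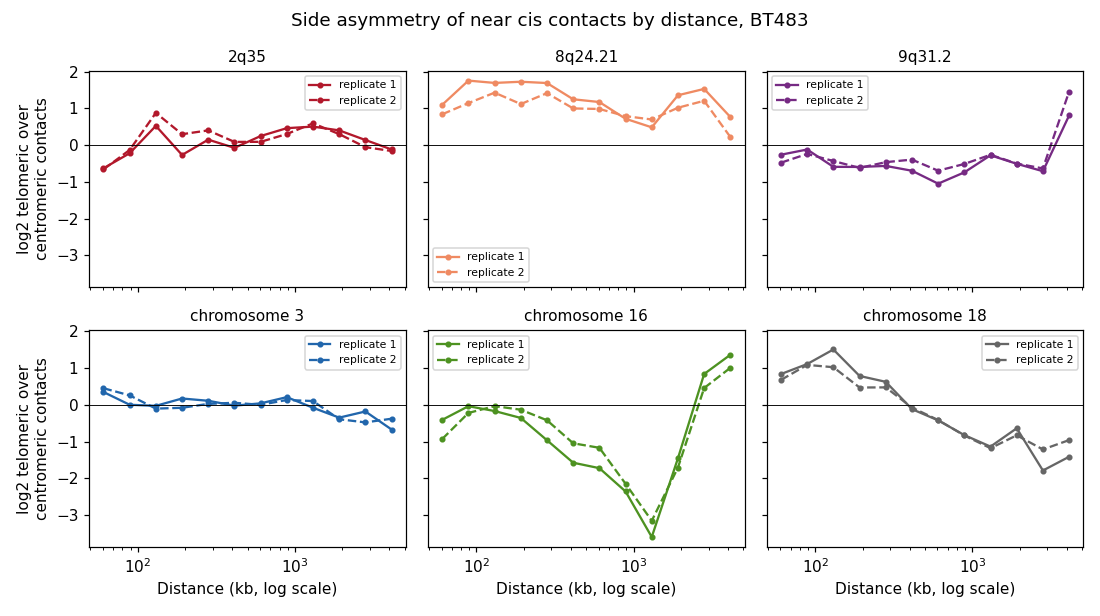
The log2 ratio of telomeric to centromeric contacts against distance (log scale) for each of the 6 regions; solid lines are replicate 1, dashed lines replicate 2 and the horizontal line marks equal sides. The 8q24.21 curve stays above 0 in all 12 bins, while the chromosome 16 curve falls to -3.60 and -3.16 near 1 Mb.

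Windows of 50 kb were next set against the distance background of their own region and replicate, with an expected count of at least 20 in each. The background covers both sides, so that a deficit on a side raises the ratios elsewhere. A ratio of at least 2 in both replicates was rare, at 6 of 1164 windows (0.515%): 1 of 585 windows at the risk loci and 5 of 579 in the other regions. At 1.5 times the background there were 58 windows (4.98% of all), of which 23 belonged to the risk loci and 35 to the other regions. At or under 0.5 times the background there were likewise 58 (4.98%), 11 at the risk loci and 47 in the other regions, and 43 of those 47 belonged to chromosome 16 alone. Without the chromosome 16 region, the share at 2 times the background differed between the classes by 0.17 percentage points (risk minus other), in place of -0.69 with it.

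At 8q24.21 the high windows all lay on the telomeric side, 8 of 8 at 1.5 times the background. They were led by a run of 5 windows, chr8:130500001-130750000, which began 2029 kb from the edge of the captured region and held 2.17 and 1.92 times the background in replicates 1 and 2. Trans contacts of the other 5 regions with the run stood at 1.07 and 1.01 times their mean over the windows tested around 8q24.21. Within it, chr8:130700001-130750000 held 976 contacts against 386 expected in replicate 1 and 4416 against 1946 in replicate 2. Its ratios were 2.53 (95% exact Poisson interval 2.37 to 2.69) and 2.27 (2.20 to 2.34), intervals that cover counting error only, since PCR copies cannot be told from separate molecules. The other named windows there, chr8:130550001-130600000 and chr8:130600001-130650000, held 2.06 and 1.94, and 2.48 and 1.92 times the background. On the centromeric side the medians of the 1 Mb distance bands were all below the background, from 0.52 and 0.63 at 2 to 3 Mb up to 0.75 and 0.94 at 4 to 5 Mb.

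The 9q31.2 region had a compact peak close by on its centromeric side. The window chr9:110250001-110300000, 458 kb from the captured region, held 703 contacts against 269 expected in replicate 1 and 2463 against 1348 in replicate 2, ratios of 2.61 (2.42 to 2.81) and 1.83 (1.76 to 1.9). It belonged to a run of 3 windows, chr9:110150001-110300000, at 2.10 and 1.70 times the background, where trans contacts of the other 5 regions stood lower, at 0.75 and 0.58 times their mean over the tested windows. Of the 12 windows at 1.5 times the background, 6 were telomeric, and the leading ones there lay far out: chr9:114700001-114750000 at 1.76 and 1.98 and chr9:115950001-116000000 at 1.71 and 1.8. Up to 3 Mb the telomeric bands were under the background, with medians of 0.73 and 0.72 at 2 to 3 Mb. A step divided the centromeric side, with medians of 1.28 and 1.26 at 2 to 3 Mb and of 0.63 and 0.58 at 3 to 4 Mb.

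At 2q35 the highest window lay just outside the captured region on the telomeric side, 187 kb away. This window, chr2:218550001-218600000, held 1.90 (1.8 to 2.01) and 1.72 (1.68 to 1.76) times the background. The other named windows were centromeric and sparse: chr2:214100001-214150000, with 94 contacts in replicate 1 and 556 in replicate 2, at 2.04 and 1.52, and chr2:213800001-213850000, at 1.87 and 1.5. The first centromeric band, up to 1 Mb from the region, had medians of 0.68 and 0.72. Only 3 of 196 windows at 2q35 reached 1.5 times the background.

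In the chromosome 16 region, 27 neighbouring windows on the telomeric side, chr16:74350001-75700000, held only 0.17 and 0.25 times the background. This trough began 166 kb from the captured region, and its lowest named window, chr16:75350001-75400000, held 0.12 and 0.13. Trans contacts of the other 5 regions with the trough stood at 0.89 and 0.81 times their mean over the tested windows, a far smaller deficit. Beyond the trough contacts returned, with band medians of 1.21 and 1.15 at 2 to 3 Mb. Shorter low runs lay far out on the centromeric side, chr16:70000001-70150000 at 0.14 and 0.21 and chr16:70200001-70400000 at 0.23 and 0.32 times the background, and there the trans contacts of the other 5 regions were low too, at 0.23 and 0.32 and at 0.42 and 0.48 times their mean. Closer in on the same side, a run of 7 windows, chr16:72150001-72500000, held 2.25 and 2.13 times the background. Its top window, chr16:72200001-72250000, held 2.82 (2.72 to 2.92) and 2.55 (2.49 to 2.62).

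The chromosome 18 region had 18 windows at 1.5 times the background and all were centromeric, 7 of them in 2 runs about 3 Mb out such as chr18:35500001-35700000, at 2.05 and 1.59. Its named windows, chr18:34950001-35000000, chr18:35250001-35300000 and chr18:34900001-34950000, held 1.99 and 1.88, 1.83 and 1.79, and 2.02 and 1.75 times the background. On its telomeric side the band medians ranged from 0.43 to 0.74. The chromosome 3 region had the fewest windows past these limits, with 1 of 189 windows at 1.5 times the background, chr3:86650001-86700000 at 2.09 and 1.75, and none at or under 0.5.

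**Figure D3:**
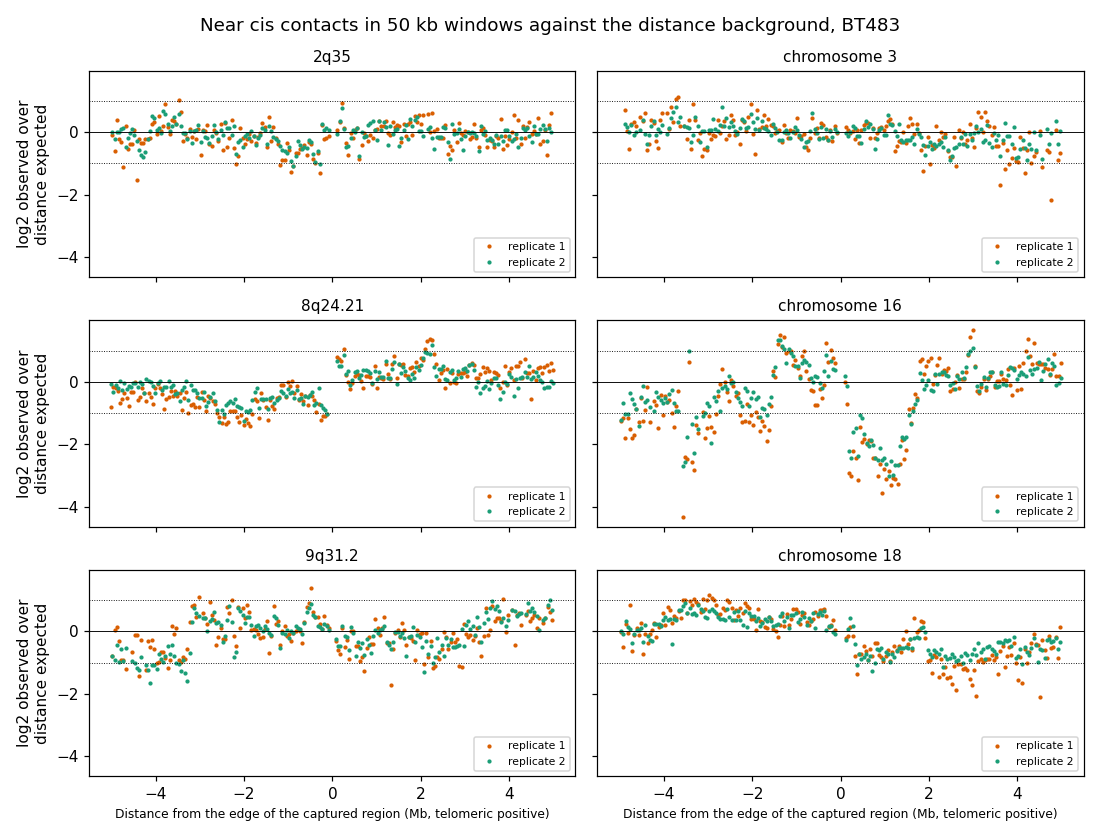
The log2 ratio of observed contacts to the distance background in 50 kb windows, against distance from the edge of the captured region with the telomeric side positive; orange points are replicate 1, green points replicate 2 and dotted lines mark 2 times and 0.5 times. The telomeric trough of 27 windows in the chromosome 16 region is the longest low run, and in the 8q24.21 panel most windows lie below 0 on the centromeric side, where all band medians are under the background.

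Farther along the chromosome, contacts of all 6 regions stayed above the trans level out to 50 Mb, and the chromosome 16 region was highest at 5 to 20 Mb and at 20 to 50 Mb. The trans level of a region is its mean number of contacts per Mb on chromosomes with no captured region. At 5 to 20 Mb, contacts per Mb stood at 5.26 and 8.38 times the trans level at 2q35, at 8.50 and 10.6 times at 8q24.21 and at 7.14 and 10.6 times at 9q31.2. The chromosome 3 region stood at 9.30 and 9.52 times, the chromosome 18 region at 7.73 and 9.31 times, and the chromosome 16 region at 14.8 and 15.2 times, above every other region in both replicates. The class difference was -0.37 ± 0.29 on the log2 scale (SD, n = 2), and without the chromosome 16 region it was -0.13. These multiples were not corrected for how often the other regions contact the same chromosome. The other 5 regions held 1.59 to 1.92 times their trans level on chromosome 8, 0.74 to 0.91 on chromosome 2 and 0.72 to 0.94 on chromosome 16. The part of this in the order of the regions and in the class difference was not tested. At 50 to 100 Mb, where the chromosome 18 region had no value, the risk loci stood at 1.71 to 3.79 times the trans level in replicate 1, under 4.20 and 5.57 on chromosomes 3 and 16. In replicate 2 the classes overlapped, with 4.31 at 8q24.21 and 4.18 on chromosome 3, and the mean class difference at this distance was -0.85 ± 0.26 on the log2 scale (SD, n = 2). The arms compared were unlike: 2q35 had only its own arm at this distance, and 9q31.2 and chromosome 16 only the other arm. On the other arm alone the classes overlapped in replicate 1 too, with 3.08 at 8q24.21 and 2.72 on chromosome 3. The chromosome 16 region kept 11.4 and 11.1 times the trans level at 20 to 50 Mb, where 2q35 had 2.93 and 4.14. On its own arm, the chromosome 3 region rose again with distance, from 2.66 and 3.59 times at 20 to 50 Mb to 6.45 and 6.03 times at 50 to 100 Mb.

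Pooled beyond 5 Mb, all 6 regions contacted their own arm more than the other arm. Distance was not matched, although the own arm holds the closest windows, and its part was not tested. By distance, the own arm was higher on chromosomes 16 and 18 at 20 to 50 Mb and at 8q24.21 at 50 to 100 Mb. On chromosome 3 it was lower at 20 to 50 Mb, at 2.66 and 3.59 times the trans level against 4.26 and 3.97. It was higher at 50 to 100 Mb. For 2q35 at 100 to 250 Mb the arms were alike, at 1.651 and 2.07 against 1.655 and 2.025. Beyond 5 Mb, the log2 ratio of contacts per Mb on the same arm to those on the other arm was highest at 8q24.21, with 1.98 and 2.04. The 9q31.2 region had 1.58 and 1.81, and 2q35 had 0.81 and 1.03. The ratio was 0.89 and 0.93 on chromosome 3, 1.03 and 1.41 on chromosome 16 and 1.19 and 1.47 on chromosome 18. The risk mean was thus higher by 0.39 ± 0.04 (SD, n = 2). Trans contacts of the other 5 regions differed between the arms too: for chromosome 8 they favoured the long arm by 1.06 and 1.07 on the log2 scale, and for chromosome 3 they favoured the other arm, at -0.47 and -0.53 for the captured arm. Less this ratio, the 8q24.21 ratio was 0.91 and 0.98, the 9q31.2 ratio 1.21 and 1.35 and the 2q35 ratio 0.83 and 0.94. The other regions had 1.36 and 1.46, 0.81 and 0.87, and 0.68 and 0.66 on chromosomes 3, 16 and 18. The class difference then came to 0.065 ± 0.035 (SD, n = 2), and chromosome 3 took the first place from 8q24.21. Copy number was not measured here, and its part in the arm ratios was not tested.

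**Figure D4:**
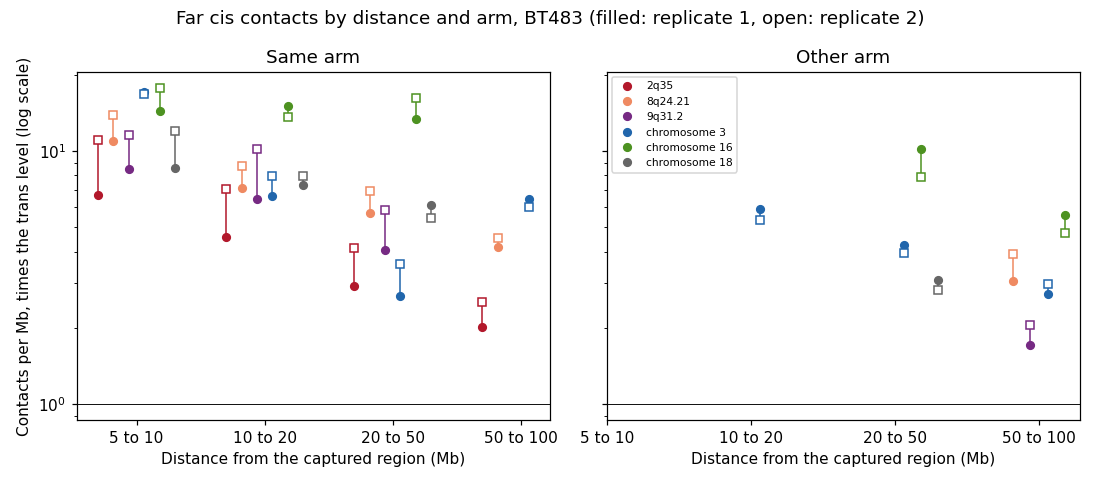
Contacts per Mb as multiples of the trans level (log scale) by distance on the same arm (left) and the other arm (right); filled circles are replicate 1, open squares replicate 2, and the horizontal line marks the trans level. The chromosome 16 region is highest at 20 to 50 Mb on both arms, and 2q35 is lowest on its own arm at 5 to 10 Mb and at 10 to 20 Mb.

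Single far windows were ranked after division by the trans contacts of the other 5 regions with the same 1 Mb window. Distance was not corrected for, which favours windows just past 20 Mb. The counts are therefore not comparable between chromosomes of unlike length. Over 20 Mb away, 37 of 603 windows (6.14%) held at least 2 times the median window of their region in both replicates. These included 8 of 197 windows for 2q35, 1 of 103 for 8q24.21, 3 of 70 for 9q31.2, 20 of 157 for chromosome 3, 5 of 43 for chromosome 16 and 0 of 33 for chromosome 18. For 2q35 the leading windows were at the long-arm end, with chr2:241000001-242000000, 22.6 Mb away, at 3.74 and 4.93 times the median. For 8q24.21, chr8:103000001-104000000, 23.9 Mb away, led at 2.10 and 2.07. For 9q31.2, chr9:86000001-87000000, 23.8 Mb away, led at 2.61 and 2.49. The chromosome 3 region contacted chr3:26000001-27000000, 55.6 Mb away on the same arm, at 4.96 and 4.53 times. The chromosome 16 region contacted chr16:34000001-35000000 across the centromere at 3.30 and 4.16 times, and chr16:51000001-52000000 on its own arm at 3.36 and 3.06.

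Trans partners of the classes can be described but not tested, since regions are not replicates of a class and a fit that takes them as units speaks only of these 6 regions. With the replicates of a region summed, such a fit with edgeR's quasi-likelihood test called 0 of 2019 windows of 1 Mb on chromosomes with no captured region (0%) after Benjamini-Hochberg adjustment. At an unadjusted p under 0.05 there were 772 windows, 329 higher and 443 lower at the risk loci, and DESeq2 called 86 higher and 221 lower. The count turned on the form of the fit: without the chromosome 18 region edgeR called 303 windows higher and 468 lower, and with class sums in each replicate and the replicate number as a block it called 556 higher and 625 lower. By whole chromosome, the levels averaged over the replicates did not overlap between the classes for 4 of 17 target chromosomes (23.5%): 1, 6, 14 and 19, all with the risk loci higher. For chromosome 6 the classes overlapped in replicate 2, with 0.833 at 8q24.21 and 0.839 in the chromosome 3 region. Chromosome 19 held 0.615 to 0.660 times the trans level at the risk loci in replicate 1 and 0.592 to 0.664 in replicate 2, and in the other regions 0.481 to 0.551 and 0.493 to 0.553. Chromosome 1 held 1.18 to 1.24 and 1.19 to 1.30 times at the risk loci against 1.05 to 1.14 and 1.08 to 1.16 times. Windows of the gene-rich chromosomes 17, 19, 20 and 22 had a median log2 class difference of 0.27, against 0.01 over all windows, and those of the gene-poor chromosomes 4, 5, 13 and X a median of -0.10. The regions of a class did not go together in the gene-rich list: against the other 5 regions, the median was 0.39 at 2q35, 0.09 at 9q31.2 and -0.09 at 8q24.21, and it was -0.34, -0.22 and 0.09 in the chromosome 16, 3 and 18 regions. Chromosome 20, a member of the list, was lower at the risk loci, at 1.41 against 1.61 times the trans level in the mean.

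**Figure D5:**
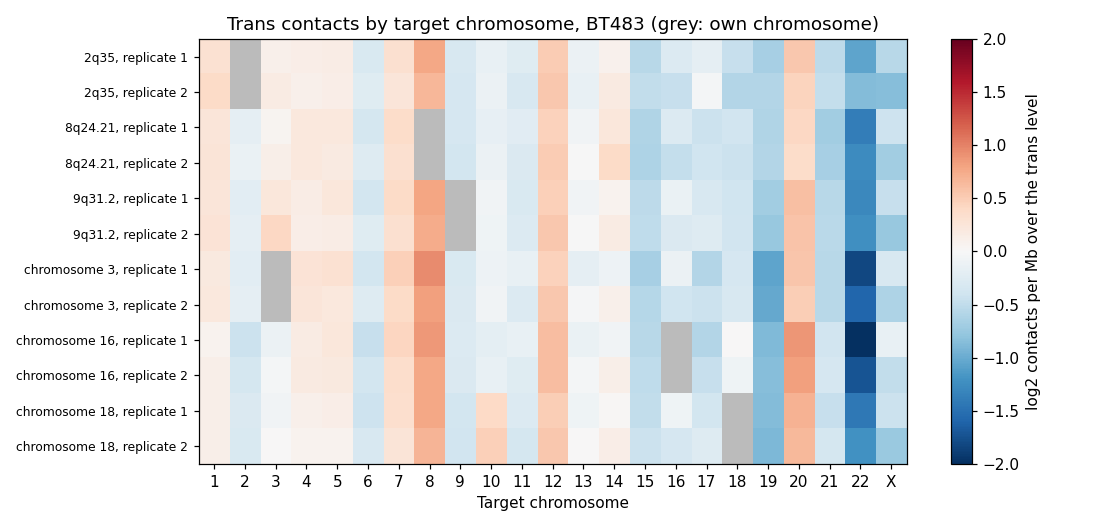
The log2 of contacts per Mb with each target chromosome over the trans level, for the 6 regions in 2 replicates (rows) and all target chromosomes (columns); red is higher, blue is lower and grey is the region's own chromosome. Rows share most of their pattern, with chromosomes 8, 20 and 12 high and 22 low, and the chromosome 18 region is alone in a red cell at chromosome 10.

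Each region was then compared with the mean of the other 5 in 12 columns with the replicate number as a block, since each library holds all 6 regions. These 6 comparisons share their data, block values are means over windows that were called and so favour a difference, and their p-values were adjusted together. Without the block, calls dropped from 3331 to 305 in all. Counts without it are given beside each region, except on captured chromosomes, which were fitted only with the block.

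The 2q35 region was called higher in 557 windows (27.6%) and lower in 482 (23.9%), and without the block in 122 and 4. On gene-rich chromosomes it was higher in 126 of 235 windows and lower in 42, with a median log2 change of 0.39 against -0.03 over all windows. On gene-poor chromosomes it was higher in 82 of 619 and lower in 162. Among single chromosomes, 28 of 36 windows on chromosome 22 and 48 of 80 on chromosome 17 were higher. Chromosome 20, also in the gene-rich list, went the other way, with 19 of 61 windows higher, 28 lower and a median of -0.21. Its leading blocks were chr19:1-8000000, chr1:6000001-49000000 and chr17:73000001-81195210. The chromosome 17 block stood at 1.07 and 1.28 times the trans level, against 0.36 to 0.78 in the other 5 regions, with no overlap. The chromosome 1 block stood at 0.78 and 1.01 times against 0.31 to 0.63. In the chromosome 19 block the values were 0.28 and 0.43 times against 0.11 to 0.23, so this top-ranked partner was still a sparse one. Their top windows changed by 1.37 ± 0.14, 1.37 ± 0.14 and 1.68 ± 0.24 (log2, SE) for chromosomes 17, 1 and 19, with edgeR adjusted p of 3.35e-11, 2.27e-11 and 2.01e-07. In GM06990 the same locus stood at 1.24 and 1.16 times the mean of the other regions on the chromosome 17 block, and in SUM44 at 1.39 and 1.39, against 1.85 and 1.91 in BT483. On the chromosome 1 block BT483 had 1.67 and 1.86 times, GM06990 1.30 and 1.18 times and SUM44 1.77 and 1.65 times. On the chromosome 19 block BT483 had 1.52 and 2.25 times, GM06990 1.30 and 1.24 times and SUM44 1.58 and 1.72 times. SUM44 thus lay close to BT483 on the chromosome 1 block and, in replicate 1, on the chromosome 19 block. On the chromosome 17 block SUM44 lay nearer to GM06990. These between-line values are descriptions without a test.

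The 8q24.21 region was called higher in 112 windows (5.55%) and lower in 277 (13.7%), and without the block in 3 and 0. This split depended on the scaling: with column totals in place of TMM it was 191 higher and 160 lower. Its top window, chr1:24000001-25000000, had a log2 change of 1.75 ± 0.22 (SE, edgeR adjusted p = 8.69e-09), but its replicates disagreed. It held 437 contacts, or 3.28 times the trans level, in replicate 1 and 371 contacts, or 0.81 times, in replicate 2, and the latter lay within the range of the other regions, 0.20 to 1.03. In replicate 1, 91.8% of those contacts fell in a single 50 kb window. A steadier block was chr19:29000001-36000000, at 1.28 and 1.57 times the trans level against 0.69 to 1.17 in the other regions, where no 50 kb window held more than 1.85% of the contacts in either replicate. Its top window changed by 0.68 ± 0.08 (log2, SE), with an edgeR adjusted p of 2.62e-09. On this block 8q24.21 stood at 1.38 and 1.55 times the mean of the other regions in BT483. The values were 0.76 and 0.89 in GM06990 and 0.86 and 0.90 in SUM44. The second-ranked block, at the end of chromosome 19, rested on a window with 14 and 29 contacts and was no longer called without the block (adjusted p = 0.14, edgeR) or by DESeq2 (adjusted p = 0.11).

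The 9q31.2 region was called higher in 109 windows (5.4%) and lower in 221 (10.9%), and without the block in 1 and 1. With column totals the split was 171 higher and 141 lower. Its named windows were sparse. The first, chr19:10000001-11000000, held 13 and 48 contacts, 0.35 and 0.36 times the trans level against 0.09 to 0.40 in the other regions. Its edgeR log2 change was 1.08 ± 0.25 (SE, adjusted p = 0.000610). The others, chr1:1000001-2000000 and chr19:18000001-19000000, held 8 and 43, and 10 and 58 contacts, and lost their calls without the block and by DESeq2, and the latter had a change of -0.055 in replicate 1 alone. Its most widely called partner was a chromosome with a captured region. An added fit on the 6 captured chromosomes, at least 5 Mb from the captured regions, was run only with the replicate block. In it, 593 of 3915 tests of a region against the other 4 (15.1%) were called higher. Of these, 80 of 185 windows on chromosome 3 were called higher for 9q31.2, and 3 lower. The block chr3:119000001-137000000 stood at 1.48 and 1.79 times the trans level at 9q31.2 against 0.90 to 1.17 in the other regions, and chr3:138000001-145000000 stood at 1.59 and 2.06 times against 0.87 to 1.35. In GM06990, 9q31.2 stood at 0.97 and 0.98 times the mean of the other regions on the first of these blocks, and in SUM44 at 1.08 and 1.06, against 1.42 and 1.65 in BT483.

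On captured chromosomes, 2q35 was called higher in 109 of 554 windows (19.7%, against 15.1% over all such tests) and lower in 192. On chromosome 9 it was higher in 23 of 104 windows and lower in 40, and on chromosome 8 higher in 17 of 132 and lower in 62. The higher windows were led by the long-arm end of chromosome 9, chr9:127000001-141000000, at 1.09 and 1.40 times the trans level against 0.40 to 0.78. The end of chromosome 8, chr8:142000001-146364022, followed at 1.57 and 1.62 times against 0.68 to 1.28. On these blocks 2q35 stood above the mean of the other regions in the other lines too. For chromosome 9 it did so by 1.44 and 1.28 times in GM06990 and 1.93 and 1.69 times in SUM44, against 1.90 and 2.09 times in BT483. For chromosome 8 the values were 1.71 and 1.44 times in GM06990 and 2.09 and 1.895 times in SUM44, above 1.78 and 1.76 times in BT483 for SUM44 only. The third block, chr3:39000001-60000000, stood at 1.51 and 1.54 times the mean of the other regions in BT483, 1.12 and 1.09 times in GM06990 and 4.66 and 3.81 times in SUM44. For 8q24.21, 61 of 651 windows were called higher (9.37%, against 15.1% over all such tests) and 84 lower. None of its 3 leading blocks on captured chromosomes exceeded 1.36 times the mean of the other regions.

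Among the other regions, the chromosome 16 region was called higher in 619 windows (30.7%) and lower in 605 (30%), and without the block in 85 and 40. With column totals it was 495 higher and 755 lower. Its leading block was the long-arm end of chromosome 12, chr12:125000001-133851895, at 4.88 and 2.56 times the trans level against 0.61 to 2.22 in the other regions. Although the level differed between the replicates, the ratio to the mean of the other regions was 3.04 and 3.22. The top window changed by 2.09 ± 0.07 (log2, SE, edgeR adjusted p = 1.00e-28). The end of chromosome 20, chr20:52000001-61000000, followed at 2.14 and 2.17 times the mean of the other regions, and the short-arm end of chromosome X, chrX:1-8000000, at 1.88 and 1.79 times. Without the block, the top windows of the latter blocks were no longer called (edgeR adjusted p = 0.0641 and 0.0535). On chromosome 18 the region was called higher in 36 of 64 windows, with chr18:1-9000000 at 1.33 and 0.94 times the trans level against 0.35 to 0.86.

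The chromosome 18 region was called higher in 109 windows (5.4%) and lower in 43 (2.13%), and without the block in 46 and 0. Of the 109, 59 lay on chromosome 10, where no window was lower. The blocks chr10:1-39000000 and chr10:42000001-61000000 flank the centromere and stood at 2.12 and 2.21, and at 2.08 and 2.22 times the trans level, against 1.14 to 1.33 and 0.83 to 1.06 in the other regions. The largest window change was 1.57 ± 0.10 (log2, SE, edgeR adjusted p = 1.19e-17). No 50 kb window held more than 3.91% of the contacts of the second block, so the signal was spread along it. In GM06990 the chromosome 18 region stood at 1.12 and 1.09 times the mean of the other regions on that block and in SUM44 at 1.13 and 1.08, against 2.22 and 2.41 in BT483. The third block, chr15:70000001-74000000, stood at 0.93 and 1.42 times the trans level against 0.47 to 1.33, and its top window was not called without the block (edgeR adjusted p = 0.174). Over the whole of chromosome 10 the region had 1.32 and 1.39 times its trans level, and the other 5 regions 0.87 to 0.95 times in replicate 1 and 0.90 to 0.96 times in replicate 2.

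The chromosome 3 region, the least deeply covered with 70945 and 183080 trans contacts, was called higher in 117 windows (5.79%) and lower in 80 (3.96%), and without the block in 2 and 1. Its first window, chr6:57000001-58000000, held 100 and 208 contacts, 4.52 and 3.59 times the trans level against 0.95 to 2.47 in the other regions. Its log2 change was 1.55 ± 0.11 (SE, edgeR adjusted p = 1.93e-16). A single 50 kb window, from 57450001, held 24% and 25.5% of these contacts. The same 1 Mb window stood above the mean of the other regions in GM06990, by 3.5 and 1.9 times, and in SUM44, by 2.13 and 1.64 times, against 2.83 and 2.92 times in BT483. The second, chr12:34000001-35000000, stood at 3.39 and 3.90 times the trans level against 1.75 to 3.43 and was not called without the block (edgeR adjusted p = 0.0766). Of its contacts, 38.7% and 41.6% fell in a single 50 kb window, from 34800001. The third, chr7:157000001-158000000, held 1.85 times in replicate 1 and 0.79 times in replicate 2, against 0.33 to 1.72, and likewise lost its call without the block (edgeR adjusted p = 0.488).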

How the data were processed

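The authors deposited raw counts of ligated pairs for BT483 in 4 tables (within the captured regions, near cis, far cis and trans), where each replicate has its own column. CASAVA 1.8 and the build GRCh37 (hg19) are named per the submitters' processing notes, and the aligner was not given in the sources used here. Columns with no sample numbered 0. The rule, the regions, the window lists and the tests were chosen with earlier results of these data known.

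Shares were computed per trans contact of the captured fragments, because the far cis and trans tables hold 50 kb windows and fewer captured fragments. Expected near cis counts came from 40 log distance bins, weighted by the trans count of each captured fragment. Arms were divided at the longest run of windows with 0 contacts. Trans windows of 1 Mb with a total of at least 60 were tested with edgeR 4.0.16 (TMM, quasi-likelihood F test) at a Benjamini-Hochberg adjusted p of 0.05, and with DESeq2 1.42.0 as an alternative, in R 4.3.3. The class contrast and a single region contrast were tested on simulated data. The replicate number was used as a block because the same library holds all 6 regions: over 15 pairs of regions, the replicate differences correlated with r from 0.48 to 0.76. SE is the log2 change over the root of F. Near cis windows named are the 3 per region with the highest lower-of-replicates ratio. Trans windows named are the 3 called blocks per region with the largest upward change, and windows called for the classes would have been named likewise. Far cis windows, runs, distance bands and the longer list of trans blocks were chosen after their values were seen. Counts of GM06990 and SUM44 served for description only.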

Additional observations from a re-analysis of the deposited data

Results flagged for a closer look

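The side on which a region had more contacts went one way in both replicates of some regions and the other way in both replicates of others, a difference that was not tested. Averaged over the replicates, the mean log2 ratio of telomeric to centromeric contacts was 1.13 at 8q24.21 and 0.13 at 2q35, and it was -0.38 at 9q31.2, -0.83 in the chromosome 16 region, -0.14 in the chromosome 18 region and -0.037 in the chromosome 3 region.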

How the results depend on the processing

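Class differences kept their direction except where named. The slope difference was -0.21 without chromosome 16, -0.20 without 8q24.21 and -0.18 at 100 kb to 2 Mb. On the telomeric side alone it turned to 0.033. The near cis difference was -3.34 without 8q24.21. Side asymmetry turned to 0.15 without chromosome 16, and was -0.28 without 8q24.21, -0.029 with captured fragments left after the weakest were dropped, -0.38 at 500 kb to 5 Mb and -0.19 from side totals. The arm difference was 0.15 without 8q24.21, 0.21 beyond 20 Mb and 0.065 less the trans ratio, an alternative chosen after seeing the data. The difference in windows at 2 times the background turned to 0.17 without chromosome 16, was 0 at 3 times, which no window reached, and -2.11 at 1.5 times, and ranged from -1.92 to -0.85 when a replicate was left out. Calls between classes came to 307 with DESeq2, 3 with column totals, 17 in 250 kb windows, 6 without chromosome 3, 771 without chromosome 18, 2 to 197 with a replicate left out, and 1181 from class sums with a replicate block, which tests these regions and not the class. Calls of each region came to 305 with no replicate block and 2045 with DESeq2. In replicate 1 alone, 9q31.2 with chromosome 19 from 18000001 turned to -0.055, against 0.81 in replicate 2. Leaving out a replicate left no residual degrees of freedom for region calls, so it gave directions only. Depth limits chromosome 3 most. The cause of these changes was not tested.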
